A study of Rattus norvegicus with 6 samples.

Results

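The genes described here are those of uroguanylin and natriuretic peptide signalling in rat renal cortex: the peptide genes Guca2b and Guca2a, the guanylate cyclase receptor Gucy2c, and the natriuretic peptide receptors Npr1, Npr2 and Npr3. These 6 genes stand among 31179 genes that could be tested on the arrays. They were chosen on the measured difference of Guca2b between benzyl acetate and vehicle on these same arrays, with the other 5 added for their place in the pathway, so the members' differences below are a description and carry no test. Probes were found by the transcript accession in the scanner tables, which gave 10 probes for the 6 genes. For 5 of the 6 genes every probe was well above background on all 6 arrays, so their entry did not rest on the group in which they were higher. Neither probe of Gucy2c was well above background on any array.

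Uroguanylin and guanylin are small peptides released by the gut and the kidney. In the intestine they bind guanylate cyclase C, the product of Gucy2c, and the cGMP it makes opens chloride secretion and slows sodium uptake by the exchanger NHE3. In the kidney uroguanylin increases the excretion of sodium, potassium and water, and in mice part of this effect does not need guanylate cyclase C. Atrial and B-type natriuretic peptides act through the cyclase encoded by Npr1, C-type natriuretic peptide through that of Npr2, and Npr3 encodes a receptor that clears all of them.

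The samples were renal cortex from 6 male Sprague-Dawley (Crl:CD(SD)) rats, bought at 5 weeks of age and all kept on the same basal diet. For 4 weeks 3 rats received benzyl acetate at 1000 mg/kg/day and 3 received corn oil, the vehicle. The route and the age at sampling are not given in the sources used here. Benzyl acetate is a fragrance ester that the body turns into benzyl alcohol, benzoic acid and then hippuric acid. Each animal's RNA was read on 1 single-colour Agilent array, and a level below is the log2 of the spot signal relative to the 75th percentile of that array, so 0 is the brightness of the probe at that percentile.

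The arrays differed in ways that go with the groups. The 75th percentile of the signal was 883.4 to 990.4 with benzyl acetate and 1003.1 to 1057.0 with vehicle, and 69.01% to 69.77% of probes were well above background with benzyl acetate against 70.54% to 71.95% with vehicle. Benzyl acetate replicate 3 had the lowest 75th percentile and the widest log2 gap between the 3' and 5' control probes of Gapdh, 2.62, against 2.374 and 2.418 on the other treated arrays and 2.384 to 2.443 on the vehicle arrays. Vehicle replicate 1 was on a slide of its own. All 6 listed genes of the whole proximal tubule, including Slc34a1 and Lrp2, were well above background, as were Tff3, Vil1 and Cdx2 of the 6 listed intestinal genes, while the intestinal genes Lgals4 and Fabp2 were not and Muc2 had no matched probe.

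Guca2b, which encodes the uroguanylin precursor, was lower in every benzyl acetate animal than in every vehicle animal. On its brighter probe (A_43_P15387) the scanner signal was 1560, 1517 and 1337 units in benzyl acetate replicates 1, 2 and 3, against 3007, 3052 and 3839 units in vehicle replicates 1, 2 and 3. The highest treated value lay well under the lowest vehicle value before any scaling between arrays. Relative to the array's 75th percentile the log2 level was 0.66, 0.62 and 0.60 with benzyl acetate, against 1.58, 1.54 and 1.86 with vehicle. The group means were 0.62 ± 0.031 with benzyl acetate and 1.66 ± 0.17 with vehicle (SD, n = 3 each). The difference was -1.04 log2 (95% interval of the limma fit, -1.29 to -0.79), a 2.05-fold lower level that left 48.7% of the vehicle signal.

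The 3 treated animals lay closer together than the 3 vehicle animals, among which replicate 3 was highest on both probes. On the dimmer probe (A_64_P075992) the log2 level was 0.06, 0.13 and -0.10 with benzyl acetate, against 0.84, 0.86 and 1.15 with vehicle. That probe gave a difference of -0.92, or 52.7% of the vehicle signal, so both probes separated the groups in the same direction and to a similar extent. Without vehicle replicate 3 the brighter probe's difference was -0.94, without benzyl acetate replicate 3 it was -1.02, and without vehicle replicate 1, the array on the other slide, it was -1.08. The scanned spots of the brighter probe were 25.1 to 68.6 times their local background, far from the detection limit, and the software's error per spot was 10% of the signal. In whole tissue, fewer cells that make the transcript and less transcript per cell cannot be told apart.

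**Figure D1:**
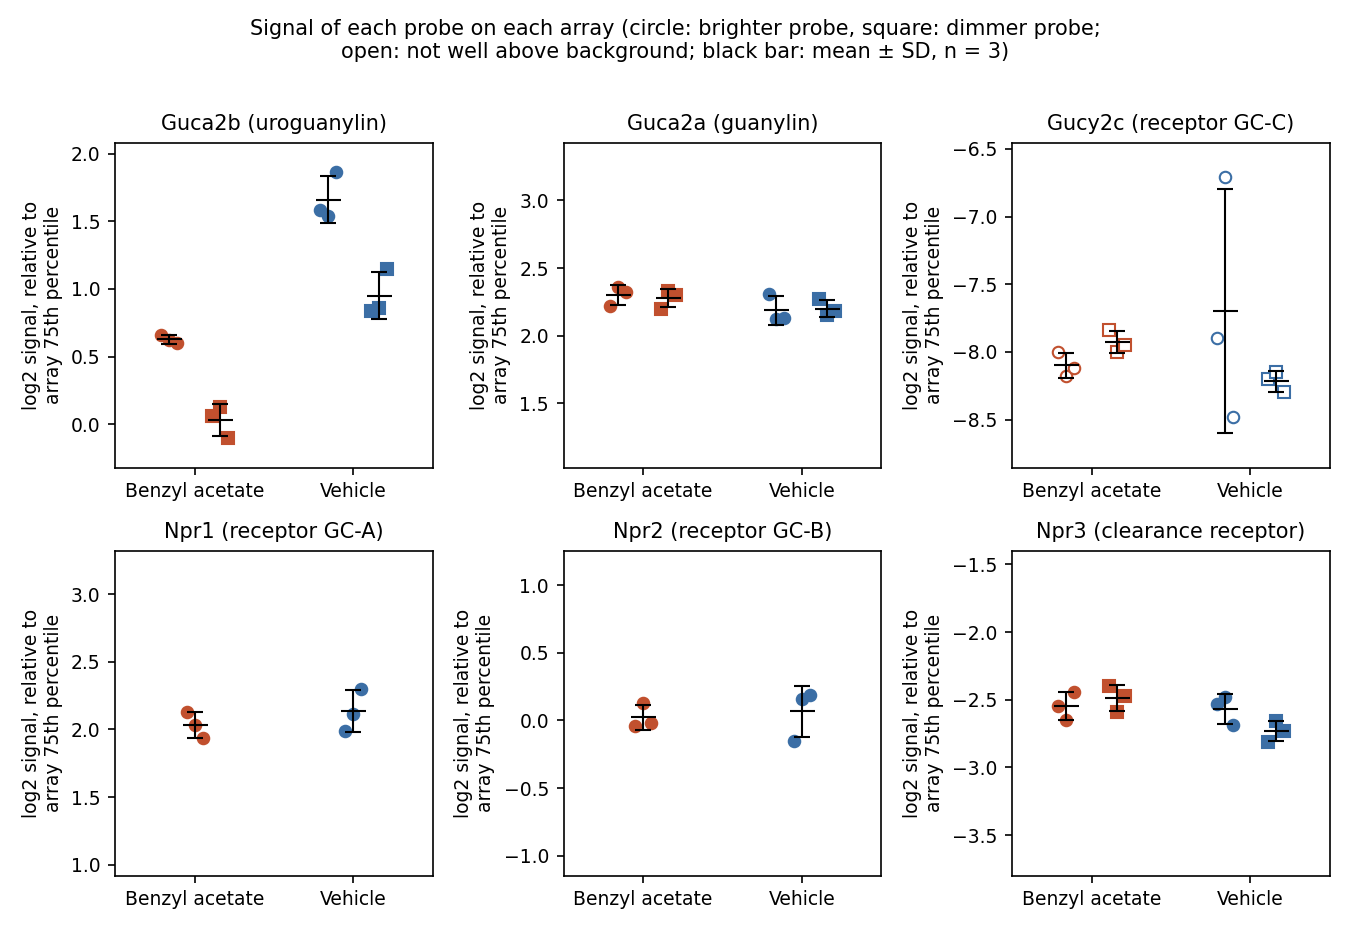
Log2 signal, with the 75th percentile of its array at 0 (vertical axis, each panel with its own range) for every probe of the 6 genes, with benzyl acetate animals in orange on the left and vehicle animals in blue on the right of each panel. Bars show mean ± SD of 3 arrays, and open symbols mark probes not well above background. Both Guca2b probes separated the groups, at -1.04 and -0.92 log2, while the symbols of Guca2a, Npr1 and Npr2 overlapped.

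Guca2a, which encodes the sister peptide guanylin and is the nearest protein-coding gene to Guca2b on the chromosome in RefSeq, did not show this difference. Its log2 level on the probe used (A_64_P024540) was 2.22, 2.36 and 2.32 with benzyl acetate, against 2.31, 2.12 and 2.13 with vehicle. The groups overlapped, since vehicle replicate 1 lay within the treated range. The means were 2.30 ± 0.072 with benzyl acetate and 2.19 ± 0.10 with vehicle (SD, n = 3 each), a difference of 0.11 (95% interval -0.09 to 0.32). Its other probe (A_43_P11723) gave 0.08. The interval ends well short of a change of the size seen in Guca2b in either direction.

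The ratio of the 2 peptide signals within an array does not depend on how arrays are scaled to each other. The log2 ratio of Guca2b over Guca2a was -1.56, -1.74 and -1.72 in benzyl acetate replicates 1, 2 and 3, against -0.72, -0.58 and -0.27 in vehicle replicates 1, 2 and 3. All treated animals were below all vehicle animals, with means of -1.68 ± 0.10 and -0.52 ± 0.23 (SD, n = 3 each) and a difference of -1.15. The peptide genes thus differed unequally between the groups. Values for the nearest other tested genes on each side are given beside it. Foxj3, the next protein-coding gene beyond Guca2a and a forkhead transcription factor, differed by -0.09 (95% interval -0.48 to 0.31), and Hivep3, a zinc finger protein gene on the other side of Guca2b, by -0.05 (-0.37 to 0.27). Neither passed in limma (adjusted p = 0.944 and 0.964). Foxj3 was dim, with means of -4.68 with benzyl acetate and -4.59 with vehicle.

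The sequence before the start of each peptide gene is shown because these neighbours differed unequally while lying side by side. Both stretches come from RefSeq, build GRCr8, and hold the 250 bases before the annotated start, 5′ to 3′ on the gene's own strand. The Guca2b stretch is chr5:138534211-138534460 on the minus strand and the Guca2a stretch is chr5:138522196-138522445 on the plus strand. Capitals mark matches to any of the motifs searched on either strand. The first was the TATA box core, TATAA. The second was a half-site of the HNF1 factors of kidney and gut epithelium, GTTAAT. The third was a site of the GATA factors, AGATAA, which reads as its reverse complement, TTATCT, when it lies on the other strand.
Guca2b: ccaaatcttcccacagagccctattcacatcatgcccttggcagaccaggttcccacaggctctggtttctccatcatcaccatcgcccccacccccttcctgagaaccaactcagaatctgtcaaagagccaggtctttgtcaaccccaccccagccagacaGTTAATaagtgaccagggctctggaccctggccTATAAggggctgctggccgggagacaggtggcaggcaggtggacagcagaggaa
Guca2a: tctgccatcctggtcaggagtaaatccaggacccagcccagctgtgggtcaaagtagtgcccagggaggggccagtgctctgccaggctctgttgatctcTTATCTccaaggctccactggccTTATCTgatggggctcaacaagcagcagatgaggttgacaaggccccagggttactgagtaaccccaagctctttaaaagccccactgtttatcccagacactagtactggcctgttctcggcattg

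The Guca2b stretch holds 1 TATA box core, from 54 to 50 bases before the start, 1 HNF1 half-site, from 87 to 82 bases before it, and no GATA site. The Guca2a stretch holds 2 GATA sites, both on the other strand, from 150 to 145 and from 127 to 122 bases before its start, and no exact match to the other motifs. Only these exact letters were searched. A variant, such as the tttaaaa of the Guca2a stretch, was not counted, so a missing match does not mean a missing element. Among 33469 rat windows of the same length, 24.0% held the TATA box core, 6.45% the HNF1 half-site and 10.3% the GATA site on either strand. The motifs do not overlap here, and they were chosen with these windows in view. A match is a string of letters and the arrays measured no binding.

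Gucy2c, which encodes guanylate cyclase C, the known receptor of both peptides, was not measurable. The scanner signal of its probe A_44_P837219 was 4.31, 3.86 and 3.57 units with benzyl acetate, against 3.42, 3.70 and 3.35 units with vehicle. The other probe (A_64_P046614) read 3.86, 3.41 and 3.18 units with benzyl acetate and 4.2, 10 and 2.95 units with vehicle. The lowest signals called well above background were 15.3 to 18.3 units on the treated arrays and 14.0 to 15.2 units on the vehicle arrays, so every reading of Gucy2c was under them. No difference can be formed for it, and a low level of the receptor transcript would not be detectable here.

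The receptors of the natriuretic peptides were all measured, and on the probes used their groups overlapped. Npr1, which encodes the receptor of atrial natriuretic peptide, stood at 2.13, 2.03 and 1.94 log2 with benzyl acetate, against 1.99, 2.11 and 2.30 with vehicle. The difference was -0.10 (95% interval -0.35 to 0.15), and the value of each treated animal lay within the vehicle range except replicate 3. Npr2, which encodes the receptor of C-type natriuretic peptide, stood at -0.04, 0.13 and -0.02 with benzyl acetate, against -0.15, 0.16 and 0.19 with vehicle. Its difference was -0.04 (-0.33 to 0.24), and all treated values lay inside the vehicle range.

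The clearance receptor gene Npr3 gave a different picture on each of its probes. On the brighter probe (A_44_P552517), which entered the fit, the level was -2.55, -2.65 and -2.44 with benzyl acetate, against -2.53, -2.48 and -2.69 with vehicle, and the groups overlapped. That difference was 0.02 (95% interval -0.21 to 0.25). On the other probe (A_64_P036616) the level was -2.40, -2.59 and -2.47 with benzyl acetate, against -2.81, -2.66 and -2.73 with vehicle. There all treated animals were higher, by 0.25, but the lowest treated and the highest vehicle value were only 0.07 apart. Npr3 was the dimmest of the measured members relative to background, with spots 3.58 to 4.75 times their local background.

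Among the 5 members tested, 1 had groups that did not overlap on the probe used, Guca2b, and it was lower with benzyl acetate. Over all 31179 genes 5.31% had groups that did not overlap with benzyl acetate lower, and 7.51% with benzyl acetate higher. No member was called after Benjamini-Hochberg adjustment over all genes (limma, threshold 0.05), and neither was any other gene, 0% of those tested. There were 122 genes with a lower difference than Guca2b among the 31179, and 57 among the 29810 that were well above background on all 6 arrays. The spread of Guca2b within groups, a pooled SD of 0.12, was near the median of all genes, 0.14. For the other members it was 0.089 (Guca2a) to 0.15 (Npr2).

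**Figure D2:**
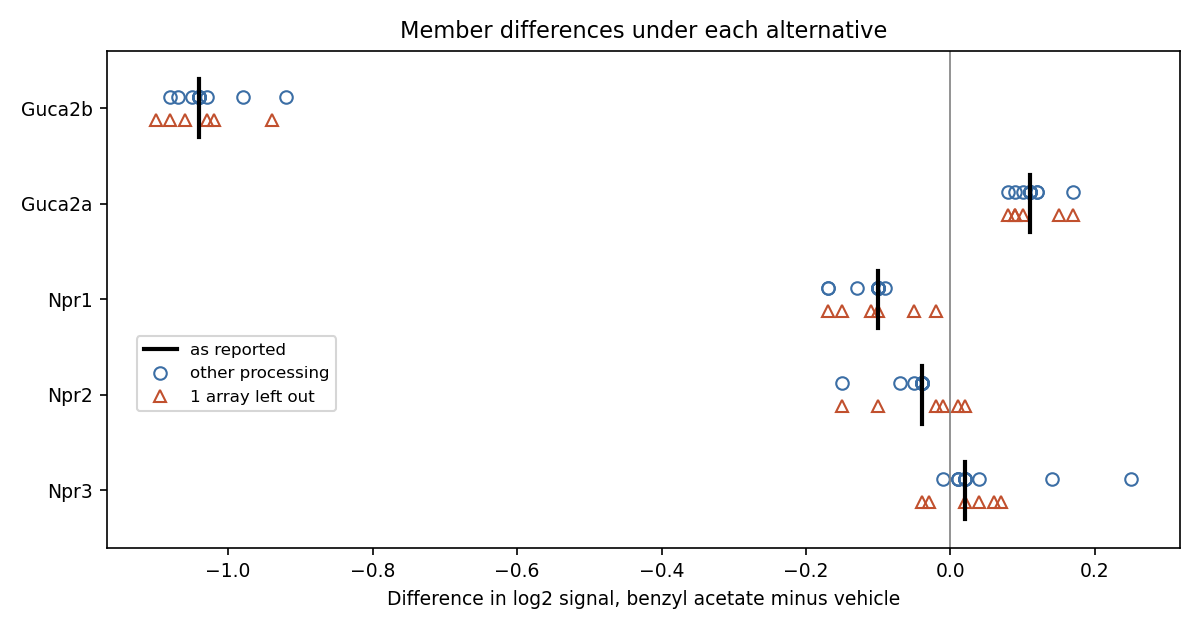
Difference in log2 signal, benzyl acetate minus vehicle (horizontal axis), for the 5 measured members under each alternative. The black bar is the value reported, blue circles are other processing choices and orange triangles leave out 1 array. Guca2b stayed between -1.10 and -0.92 over 19 alternatives, several of which leave its estimate unchanged by construction. Npr2 and Npr3 had values on both sides of 0.

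The wider pathway was taken from 8 lists with 70 genes, the members included, from peptides to transport targets. Of these, 69 had a probe and 55 were tested, while 14 were not well above background. None passed over all genes in either direction (limma, 0 of 55). At an unadjusted p under 0.05 there were 2 lower, Guca2b and Slc26a4, and 0 higher, where 2.92% of all genes were lower and 3.82% higher at that level. Guca2b was chosen on this difference, and that of Slc26a4 was known when the list was drawn up. The lower count thus follows from the choice of genes and is a description only. Without the members, 1 of 50 tested genes was lower at that level (Slc26a4) and 0 were higher. Groups did not overlap for 3 lower genes (Guca2b, Slc26a4 and Kcnj1) and 3 higher ones (Gucy1a2, Nherf2 and Scnn1b, at 0.16, 0.14 and 0.18). The shares over all genes were the 5.31% and 7.51% above, and the lower count again holds Guca2b and Slc26a4. The 3 detected probes of Gucy1a2 ran from -0.04 to 0.22. The median log2 difference of the 55 genes was -0.031, against 0.012 over all genes. The 95% interval lay inside a 2-fold difference for 45 of the 55 and inside a 1.5-fold difference for 41.

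Among the other peptide ligands, 1 of 4 was measurable. Nppa, which encodes atrial natriuretic peptide, stood at -3.62, -3.91 and -3.52 with benzyl acetate, against -3.91, -3.47 and -3.48 with vehicle, and differed by -0.06 (95% interval -0.47 to 0.34). The groups overlapped and the spots were only 1.94 to 2.56 times local background. Nppb and Nppc, for the B-type and C-type peptides, and Ostn, for the Npr3 ligand musclin, were not well above background on any array.

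Of the genes that process or break down the peptides, 0 of 5 tested passed. Furin, a proprotein convertase, differed by 0.03 (95% interval -0.12 to 0.18) and Dpp4, a brush border peptidase, by 0.07 (-0.11 to 0.24). Mme, which encodes neprilysin, the brush border enzyme that degrades natriuretic peptides, stood at 1.58, 1.63 and 1.20 with benzyl acetate, against 2.72, 2.72 and 0.82 with vehicle. Vehicle replicate 3, which was also low in the third-segment marker Slc7a13 (2.63, against 5.51 and 5.54 in the other vehicle animals), as was benzyl acetate replicate 3 (2.74, against 4.62 and 4.47), was below every treated animal and the other vehicle animals were above them all. The difference of -0.62 (-1.92 to 0.69) was -1.25 without vehicle replicate 3, and the adjusted p in limma was 0.852 with it and 0.372 without it (0.372 to 0.972 over the alternatives). Over the alternatives the difference ran from -1.25 to -0.30. The value without vehicle replicate 3 is the extreme one and was picked out after seeing the data. Pcsk1, a convertase of endocrine cells, was well above background on 3 treated and 2 vehicle arrays and so was tested only through the treated group, where it was higher. Its difference of 1.37 (-0.14 to 2.88) did not pass in limma and is not read further. The atrial peptide convertase Corin was not well above background.

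The remaining receptor cyclases were dim or unmeasured. Gucy2e, a retinal type cyclase, differed by -0.05 (95% interval -0.25 to 0.15) and Gucy2g, well above background on 2 treated and 3 vehicle arrays, by -0.10 (-1.04 to 0.83), while Gucy2d and Gucy2f were not well above background. In the nitric oxide branch, which makes cGMP through soluble cyclases, 0 of 6 tested genes passed. Gucy1a1 and Gucy1b1, the subunits of the main soluble cyclase, differed by -0.11 (-0.43 to 0.21) and -0.20 (-0.65 to 0.25), with other detected probes at -0.21 and -0.59, and the endothelial synthase gene Nos3 by 0.06 (-0.30 to 0.42). Gucy1b2, a soluble cyclase subunit found in rat kidney, stood at -0.18, -0.83 and -1.26 with benzyl acetate, against 1.05, 1.1 and -1.44 with vehicle. As for Mme, vehicle replicate 3 was the lowest of all 6 animals and the other vehicle animals were the highest. The difference was -1.0 (-2.80 to 0.81, adjusted p = 0.833 in limma), and -1.83 without that animal (adjusted p = 0.427, and 0.427 to 0.961 over the alternatives, limma). Over the alternatives it ran from -1.83 to -0.56. The value without vehicle replicate 3 is thus the extreme one, and it was picked out after seeing the data. It keeps benzyl acetate replicate 3, the lowest treated animal at -1.26.

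Downstream of cGMP no gene passed either. Of 7 tested genes for cGMP-dependent kinases and their substrates, the 2 brightest, Ppp1r12a and Irag1, which act in smooth muscle relaxation, differed by -0.06 each. Rgs2, a regulator of G protein signalling that the kinase activates, differed by -0.18 (95% interval -0.42 to 0.06). Prkg2, the membrane-bound kinase that relays guanylin peptides in the intestine, was dim and differed by -0.15 (-0.57 to 0.27), and neither probe of Prkg1 entered. Phosphodiesterases and cGMP exporters had 12 tested genes with differences of -0.21 (Pde11a) to 0.15 (Pde9a). Pde2a, the brightest, differed by -0.04 (-0.29 to 0.21), Pde1a by -0.11 (-0.45 to 0.24), Pde5a, which degrades cGMP in smooth muscle, by 0.14 (-0.52 to 0.79), and the exporter gene Abcc4 by 0.06 (-0.16 to 0.29). Both tested cGMP-gated channel genes were well above background on 2 treated and 3 vehicle arrays and so were tested only through the vehicle group, where they were higher, with Cngb1 at -0.46 (-1.21 to 0.30) and Cngb3 at -0.43 (-3.97 to 3.11).

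**Figure D3:**
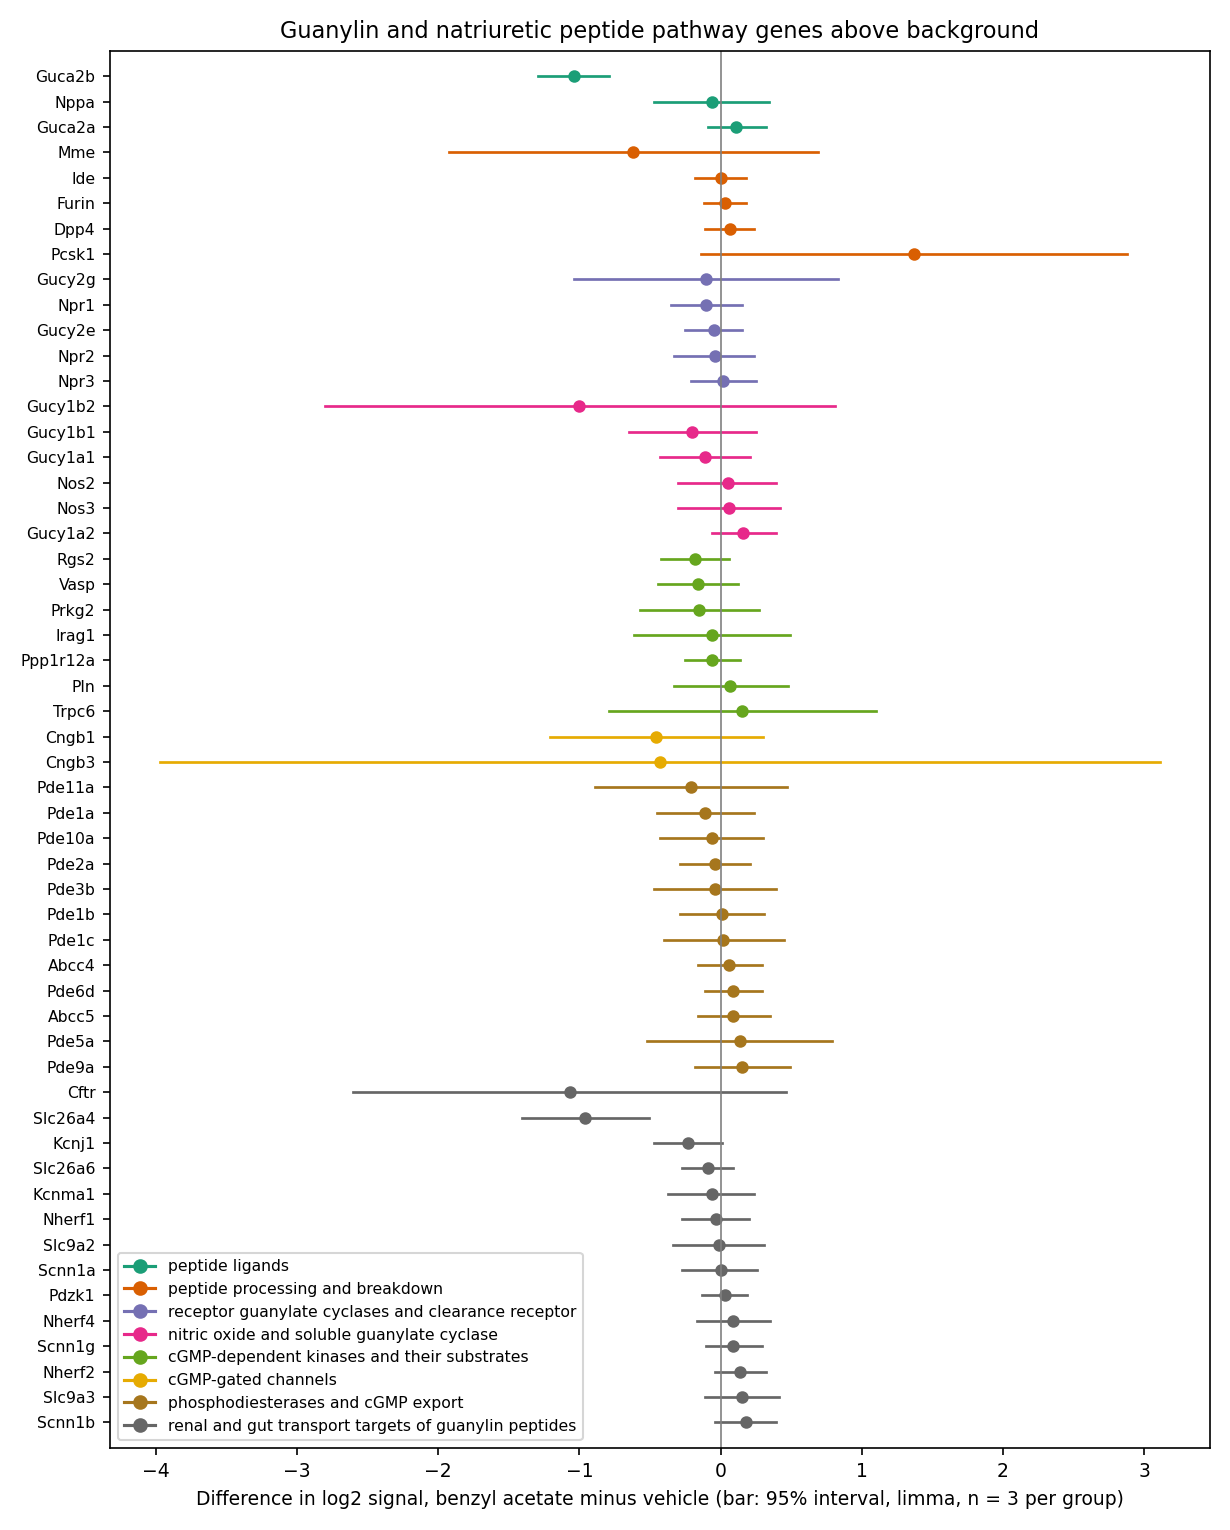
Difference in log2 signal, benzyl acetate minus vehicle (horizontal axis), for the pathway genes tested, 1 of them not shown, coloured by list, with 95% intervals from limma over 3 arrays per group. The intervals of Guca2b and Slc26a4 lie to the left of 0 and every other interval shown spans it.

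Among transport targets of the peptides, Slc26a4 was lower in all treated animals. It encodes pendrin, the chloride-bicarbonate exchanger of type B intercalated cells. Its level was 4.88, 4.56 and 4.27 with benzyl acetate, against 5.71, 5.60 and 5.30 with vehicle, and the groups did not overlap. The difference was -0.96 (95% interval -1.41 to -0.51), did not pass in limma (adjusted p = 0.609, and 0.260 to 0.826 over the alternatives), and was -1.06 on a dimmer probe. This difference was known when the list was drawn up. Kcnj1, the potassium channel ROMK, stood at 0.51, 0.71 and 0.67 with benzyl acetate, against 1.00, 0.75 and 0.82 with vehicle. The groups did not overlap, and the difference of -0.23 (-0.47 to 0.01) did not pass (adjusted p = 0.746 in limma).

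Of the other transport targets, those named here lay close to 0 apart from Cftr. Slc9a3, which encodes the sodium-proton exchanger NHE3 of the proximal tubule, differed by 0.15 (95% interval -0.11 to 0.41), with another of its probes at -0.13. Slc26a6, an anion exchanger of the proximal brush border, differed by -0.09 (-0.27 to 0.09), and the scaffold gene Pdzk1 by 0.03 (-0.13 to 0.19). Cftr, the chloride channel through which guanylin peptides act in the gut, was dim, well above background on 2 treated and 3 vehicle arrays, and so was tested only through the vehicle group. Its difference of -1.07 (-2.60 to 0.46) did not pass in limma (adjusted p = 0.793). Without vehicle replicate 3, the lowest vehicle array at -5.53, it was -1.70, the extreme of a range of -1.70 to -0.36 over the alternatives. That array was picked out after seeing the data. In all, 15 of these 16 genes were tested, 6 above and 9 below 0, with a median of -0.012. Over all genes 46.0% were below 0.

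The genes whose profile over the 6 arrays was most like that of Guca2b were sought among 11939 other genes with a symbol that were well above background on all arrays. Each gene's mean was subtracted, and likeness was the root-mean-square difference from Guca2b in log2 units. The 5 closest were Cryz (0.16), Plcg2 (0.19), Gli1 (0.20), Tfrc (0.21) and Adcyap1r1 (0.21). They encode a quinone reductase, a phospholipase C, a transcription factor of hedgehog signalling, the transferrin receptor and the receptor of the peptide PACAP. For comparison, the other Guca2b probe was at 0.086, and a gene with no variation at all would be at 0.53. Slc26a4 was at 0.27, place 24 in the order, and Atp6v1g3, which encodes part of the V-ATPase of intercalated cells, at 0.31, place 43. The other members were at 0.47 (Npr1), 0.51 (Npr2), 0.56 (Npr3) and 0.59 (Guca2a). Guca2b was chosen on its group difference, which makes up most of its profile. The measure therefore finds genes with a group difference of similar size, here -1.33 (Cryz) to -0.73 (Plcg2). Members with differences near 0 lie near 0.53 by construction.

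**Figure D4:**
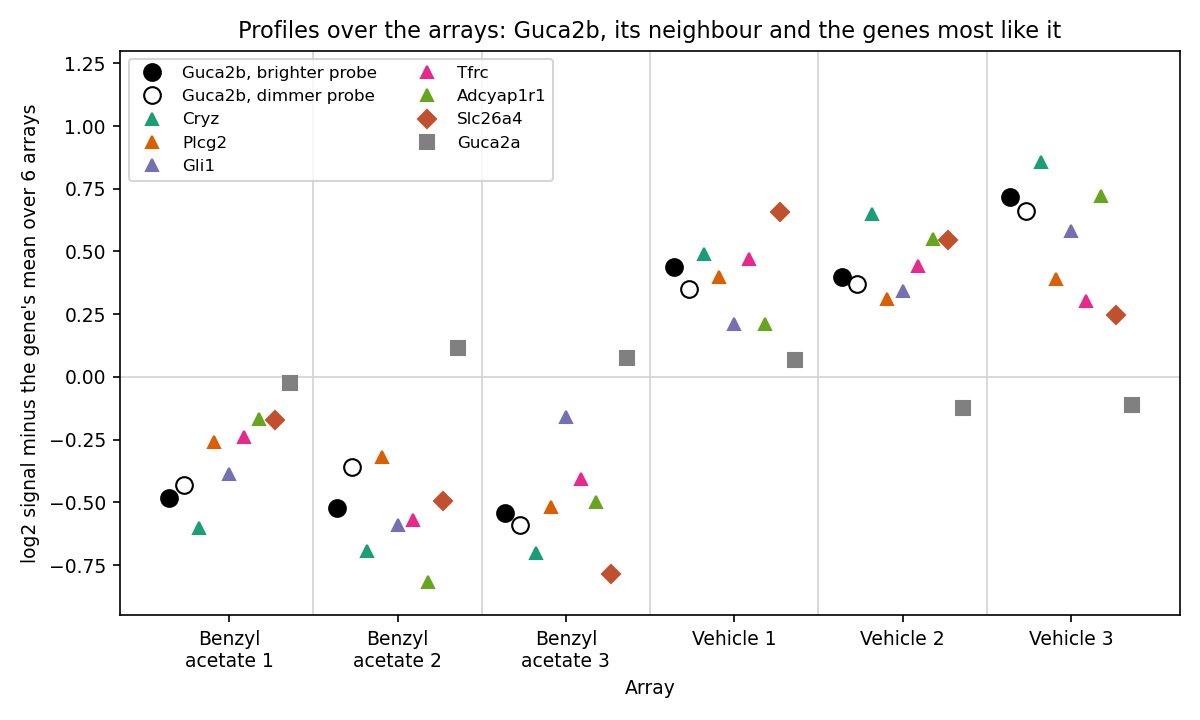
Log2 signal minus the gene's mean over the 6 arrays (vertical axis) on each array, for both Guca2b probes (black and open circles), the 5 genes of most similar profile (triangles), Slc26a4 (diamonds) and Guca2a (squares). Apart from Guca2a, every symbol is below 0 on the benzyl acetate arrays and above 0 on the vehicle arrays.

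The summed level of some cell type markers also differed between the groups, although no tested marker passed over all genes (limma, lowest adjusted p = 0.609). The summed linear signal of the 6 intercalated cell markers, in units of the array's 75th percentile, was 85.9 to 105 with benzyl acetate and 126 to 171 with vehicle, with 5 of 6 genes below 0 and a median difference of -0.51. Slc26a4, Atp6v1g3 and Insrr had groups that did not overlap, while Slc4a1, the anion exchanger of type A cells, differed by 0.09. The sum is weighted to its brightest genes, Atp6v1g3 and Slc26a4. The counts in this paragraph are to be read against all genes, of which 46.0% were below 0. Groups did not overlap for 5.31% of all genes with benzyl acetate lower. Atp6v1g3 stood at 5.67, 5.72 and 5.59 with benzyl acetate, against 6.49, 6.36 and 6.02 with vehicle, a difference of -0.63 (95% interval -0.96 to -0.31, adjusted p = 0.620 in limma). T and NK cell markers summed to 1.68 to 2.00 with benzyl acetate and 2.03 to 4.40 with vehicle, with all 5 tested genes below 0 and Cd3e not well above background. Vehicle replicate 3 was the highest array, at 4.40, against 2.18 and 2.03 for the other vehicle animals. Leaving it out was chosen after seeing the data. Without it Cd3d, a T cell receptor complex gene, differed by -0.14, against -0.48 with it, and Cd3g by -0.45, against -1.07. The markers Nkg7 and Gzma differed by -0.06 and -0.37 without it, against -0.31 and -0.50 with it. Cd2, a T and NK cell adhesion gene, was well above background on 0 treated and 3 vehicle arrays. It was thus tested only through the vehicle group, where it was higher, and the count of 5 genes below 0 includes it. Its difference was -1.77, and -1.07 without vehicle replicate 3. Endothelial markers went the other way, at 78.9 to 82.9 with benzyl acetate and 74.0 to 76.0 with vehicle, with 6 of 6 genes above 0, and so did mesangial, smooth muscle and renin cell markers, at 49.4 to 66.1 with benzyl acetate and 41.5 to 48.8 with vehicle, with 3 of 6 above 0. The 6 markers of all proximal tubule segments summed to 834 to 936 with benzyl acetate and 822 to 865 with vehicle, and those of the third segment and outer stripe to 424 to 531 with benzyl acetate and 455 to 613 with vehicle, both overlapping. The part of these cell types in the level of Guca2b was not tested.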

How the data were processed

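Cy3-labelled renal cortex RNA from 3 benzyl acetate and 3 vehicle rats, separate animals per the labels' protocols, was read on 1-colour arrays. The scanner tables deposited by the authors hold intensity values and 0 or 1 flags (well above background, saturated, outlier) written by Agilent Feature Extraction 10.7 (named in the submitters' processing notes). The processed signals had local background removed, and each array was extracted alone, per the file headers. The authors' deposited value table also holds intensity. Against the processed signal it differed by 1 factor per array, within an SD of 0.0011 log2 for values of at least 0.01, so it is linear and not centred. Its column medians were 0.1148, 0.1118 and 0.1125 for benzyl acetate and 0.1102, 0.111 and 0.111 for vehicle.

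The processed signal of the 61537 probes that are not controls was put on a log2 scale and each array's 75th percentile subtracted, a relative scale on which a change shared by most transcripts is not seen. Outlier spots were left out and no spot was saturated. Probes entered when well above background on all 3 arrays of a group, and the probe of highest mean stood for its gene. Accessions were matched to RefSeq symbols of GRCr8 for 28206 probes (15645 symbols), while 33331 kept their own name. The array grid names an older build, so only the printed sequences carry coordinates. Limma 3.58.1 in R 4.3.3 (lmFit, eBayes, Benjamini-Hochberg over all genes, threshold 0.05) compared the groups, and was tested on simulated data. Members and lists were chosen with earlier results of these data known. Other genes were named by a fixed rule: a list of pathway genes, the 2 brightest and the largest difference of each list, and the 5 profiles nearest to Guca2b. The genes beside Guca2b, and Gucy2e, Gucy2d, Gucy2f, Gucy2g, Ostn, Gucy1a2, Nherf2, Scnn1b and Atp6v1g3, were added after their values were seen. The result of 1 gene that the rule names is not reported here. Probes of near-identical family members can share signal, and the number of arrays limits precision.

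Alternatives included blocks (by replicate number, by slide), background correction by normexp (offset 50, median spot signals), normalization by quantiles, medians or cyclic loess, other filters and probe choices, outliers kept, a trended robust prior, the value table, and leaving out each array. Deviations of same-numbered arrays from their group means correlated at -0.108, 0.008 and 0.001. Over all genes the numbers thus gave no sign of pairing, but these correlations cannot exclude it. Replicate 3 was the lowest array of both groups in Slc7a13, at 2.74 with benzyl acetate and 2.63 with vehicle.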

Additional observations from a re-analysis of the deposited data

How the results depend on the processing

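Guca2b was lower with benzyl acetate in all 19 alternatives, with differences of -1.10 to -0.92 log2 (1.90 to 2.14-fold), and Guca2a was above 0 in all 19, at 0.08 to 0.17. These are not separate checks. The replicate block, the filters, the kept outliers and the trended prior leave the Guca2b estimate at -1.04 by construction. The slide block gives the same differences as leaving out vehicle replicate 1, the only array on its slide. Npr1 ran from -0.17 to -0.02. Npr2 was below 0 in 17 and above 0 in 2, from -0.15 to 0.02. Npr3 was above 0 in 16 and below in 3, from -0.04 to 0.25, and its value moved to 0.14 with the mean of its probes and to 0.25 with the dimmer probe, since the probes disagree. With the replicate block 0 genes were called and Guca2b differed by -1.04. Not every array correlated best with its own number. The count of genes called lower was 2 with normexp, and 0 to 2 when 1 array was left out, with the 2 coming without benzyl acetate replicate 1. None of these was a pathway gene, and the pathway count was 0 in each direction in every alternative. The count called higher was 0 in every alternative. The cause of the added calls was not tested. Median scaling gave a median difference over all genes of -0.017, against 0.012 as reported. Of 30 pathway genes with several detected probes, 10 had probes of both signs, at most 0.32 log2 apart. Gucy2c, Nppb, Nppc and Ostn were below background, so nothing about them can be read beyond that bound.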

Other observations

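Vehicle replicate 3 stood apart from the other vehicle animals in several pathway genes. Mme was 0.82 there against 2.72 and 2.72, Gucy1b2 was -1.44 against 1.05 and 1.1, and Cftr was -5.53 against -3.42 and -3.82. The same array stood apart in markers. Slc7a13, a transporter of the third proximal segment, was 2.63 there against 5.51 and 5.54. Slc22a7, an anion transporter of the same segment, was -4.20 against -2.0 and -1.77, and Tff3, a secreted trefoil peptide, was 2.89 against 5.61 and 5.79. Benzyl acetate replicate 3 was also low in these markers, at 2.74 for Slc7a13, -4.42 for Slc22a7 and 2.21 for Tff3, where the other treated animals were at 4.62 and 4.47, -2.86 and -2.54, and 4.39 and 4.22. Vehicle replicate 3 had the highest Guca2b of all, 1.86. The part of these markers in the values of Mme, Gucy1b2 and Cftr was not tested. These genes were chosen after their values were seen.

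Further genes near Guca2b on the chromosome are given as values, chosen after they were seen. Scmh1, a Polycomb group gene, differed by 0.03 (95% interval -0.14 to 0.19), Ctps1, a CTP synthase, by -0.09 (-0.36 to 0.18), and Ppcs, an enzyme of coenzyme A synthesis, by -0.12 (-0.30 to 0.07). Ppcs stood at 4.91, 4.91 and 4.91 with benzyl acetate, against 4.93, 5.02 and 5.13 with vehicle. Its groups did not overlap, as for 5.31% of all genes with benzyl acetate lower, while those of the other genes in this paragraph did. Slfnl1 differed by 0.02 (-0.44 to 0.47) and Zmynd12 by -0.24 (-1.08 to 0.60), and both were dim.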
